A study of Mus musculus with 6 samples.

Results

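The primary cilium transport and assembly genes are 49 mouse genes whose products build and supply the primary cilium, and all 49 were found on the arrays by RefSeq accession, among 45616 features tested and 22908 with a gene symbol. They are grouped here by function, and the list was drawn up with earlier results of these data known. The list holds 11 genes of the IFT-B train, 4 of the IFT-A train with its adaptor *Tulp3*, and 10 of the BBSome with its GTPase and chaperonins. It also holds 2 ARL GTPases, 4 kinesin-2 motor genes, 2 dynein-2 motor genes and 11 genes of the transition zone and basal body. The rest are 3 ciliogenic transcription factors and 2 polycystins. Of these genes, 43 were well above background on all 6 arrays and 6 on fewer (*Bbs7*, *Bbs10*, *Dync2li1*, *Tmem67*, *Foxj1* and *Rfx2*).

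The arrays compare 2 populations of islet cells of newborn (P1) Wnt4eGFPCre; mTmG pups, raised from crosses to C57BL/6J. In these mice the Wnt4eGFPCre allele expresses an EGFP and Cre fusion from the *Wnt4* locus, and the mTmG reporter switches from membrane tdTomato to membrane GFP (mGFP) once Cre has acted. Wnt4hi cells (labelled GFPpositive and Wnt4pos) were sorted as mGFP+ and Wnt4low cells (labelled GFPnegative and Wnt4neg) as mGFP-. The study's text describes them as fractions of one sort and also names them by presence or absence of the Wnt4eGFPCre allele, so whether the Wnt4low cells carry this allele is not known from the sources used here. The mGFP mark records Cre activity in the past, and the native EGFP was too dim to be sorted on. There were 3 arrays of each population, Wnt4hi replicates 2, 3 and 4 and Wnt4low replicates 1, 3 and 4, and each array received amplified RNA of a pool of 3 or 4 pups.

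The primary cilium is a single, microtubule-based antenna that grows from a centriole, the basal body, and is carried by the endocrine cells of the islet. IFT trains, moved outward by kinesin-2 and back by dynein-2, bring in building blocks, the BBSome carries membrane proteins on these trains, and the transition zone at the base gates what enters. In β-cells the cilium is known to take part in insulin secretion and in signaling between islet cells, and cells resorb it before they divide.

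As a check of the sort, *Wnt4* had normalised log2 intensities of 11.20, 10.53 and 10.77 on the Wnt4hi arrays and of 9.85, 10.10 and 9.31 on the Wnt4low arrays. The populations did not overlap, and the log2 fold change of Wnt4hi over Wnt4low was 1.08 (SE 0.271, limma unadjusted p = 0.00694, adjusted p = 0.210). Markers of β-cells were above background in both populations and had values above 0 for 10 of 11 genes (median log2 fold change 1.17). Of the α-cell markers 6 of 6 did so (median 2.03). The unadjusted threshold of 0.05 was passed as higher by 7 β-cell and 3 α-cell markers (5.06% of all features), and the adjusted one by 0. Of the delta and PP cell markers, *Sst* (-0.56) and *Hhex* (-1.75) had every Wnt4hi array below every Wnt4low array. *Ppy* (1.22) had every Wnt4hi array above. All 13 endothelial markers had values below 0 (median -3.58, 12 past the unadjusted and 9 past the adjusted threshold of 0.05). Of the mesenchymal and pericyte markers, 10 of 10 had values below 0 (median -1.18), with 7 past the unadjusted and 0 past the adjusted threshold. Among genes of the cell cycle, 13 of 15 S phase genes (median -0.41) and 15 of 16 G2/M genes (median -0.51) had values below 0. As lower, 5 S phase and 7 G2/M genes passed the unadjusted threshold (5.53% of all features) and 0 the adjusted one. Without Wnt4hi replicate 2, an array described below, 4 S phase and 0 G2/M genes passed the unadjusted threshold as lower (5.24% of all features). The sorted cells were those of whole islets, not β-cells alone, and in such bulk samples fewer cells of a type and less RNA per cell cannot be told apart. The part of this cell makeup in the values of the cilium genes was not tested.

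The array labelled Wnt4hi replicate 2 stands apart in one respect. For the other 5 arrays, the authors' own table of normalised values followed the scanner output of the same array (r from 0.878 to 0.902 across 36685 features, as deviations from the mean of the 6 arrays), but for Wnt4hi replicate 2 the correlation was 0.283. Which of its 2 versions belongs to the label is not known from the sources used here. The values below come from the scanner output, and results are also given without this array and from the authors' table.

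Of the 49 genes, 35 (71.4%) had a log2 fold change above 0 and 14 below, against 63.6% above 0 among all features. The median log2 fold change was 0.22, against 0.07 over all features, and the values ran from -0.70 for *Bbs1* to 1.23 for *Ahi1*. At the unadjusted threshold of 0.05 that the study's methods use, *Ift57*, *Arl3*, *Ift81* and *Tctn2* were higher in Wnt4hi, which is 4 of 49 (8.16%) where 5.06% of all features were called higher. *Ift43* and *Bbs1* were lower, which is 2 of 49 (4.08%) where 5.53% of all features were called lower. Of all features, 7599 were well above background on no array. Among features with a gene symbol and well above background on all 3 arrays of a population, 7.19% were called higher and 9.40% lower. The shares of 5.06% and 5.53% that recur below are those of all features. After adjustment over all features 0 of 49 cilium genes were called, where 0.0351% of all features were called higher and 0.406% lower, and the lowest adjusted p was 0.123 (limma), that of *Ift57*. All 3 Wnt4hi arrays lay above all 3 Wnt4low arrays for 6 genes (*Ift57*, *Arl3*, *Ift46*, *Bbs12*, *Kif17* and *Tctn2*), where 9.63% of features did so. They lay below for 2 genes (*Ift43* and *Bbs1*), where 6.44% of features did so, and the arrays of the populations overlapped for the other 41 genes.

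**Figure D1:**
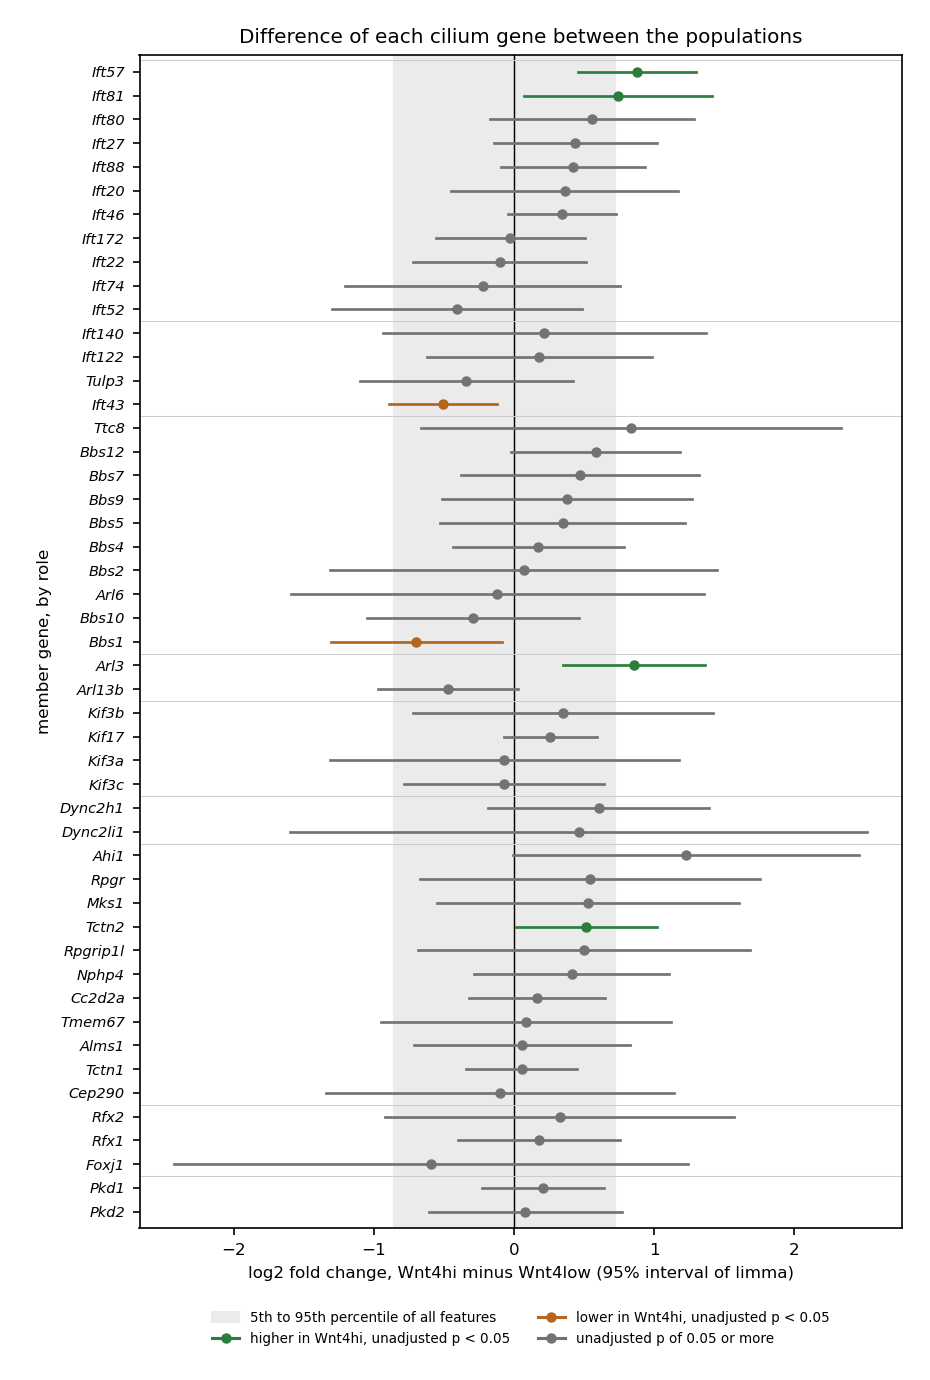
Log2 fold change of each of the 49 cilium genes (points) with its 95% interval from limma (lines), Wnt4hi minus Wnt4low, 3 arrays each, grouped by role from the IFT-B train at the top to the polycystins at the bottom. Green and brown mark the 4 genes higher and the 2 genes lower at an unadjusted p under 0.05, the grey band spans the 5th to the 95th percentile of all features (-0.86 to 0.72), and most intervals cross 0.

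The 95% interval included 0 for 43 of the 49 genes, and for 33 it reached a log2 difference of 1 or -1, so that for most of these genes a change of that size could not be told from none. The median SD between arrays of a population was 0.46 in Wnt4hi and 0.39 in Wnt4low for the cilium genes, against 0.23 and 0.25 over all features and 0.26 and 0.28 over features well above background on all 3 arrays of a population. The array values spanned over 1 log2 unit within Wnt4hi for 21 genes and within Wnt4low for 16 genes.

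**Figure D2:**
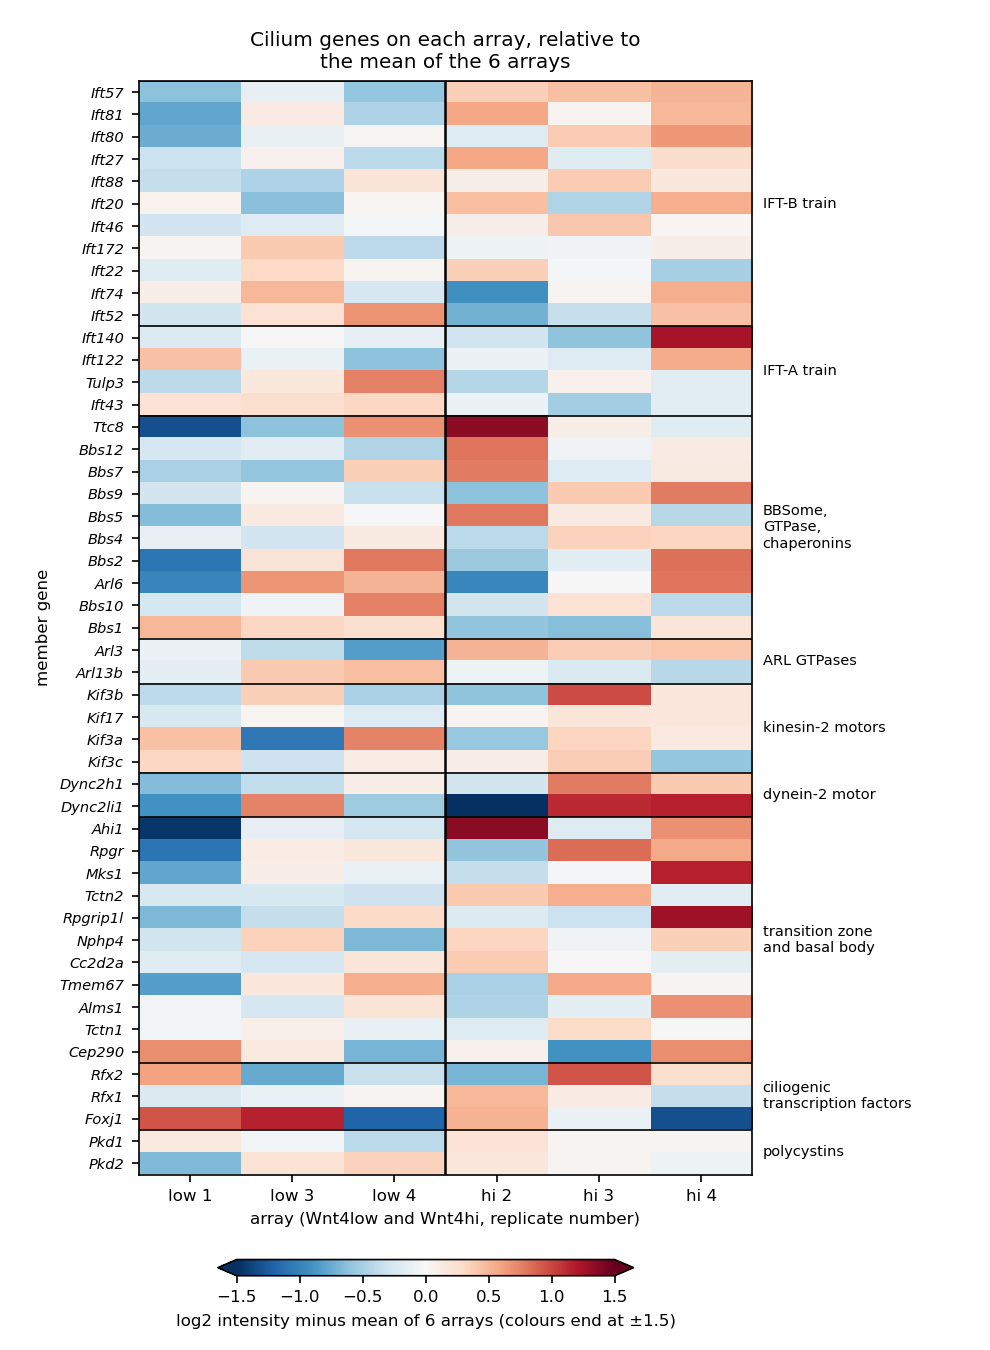
Heat map of the 49 cilium genes (rows, by role) on the 3 Wnt4low and 3 Wnt4hi arrays (columns), as the log2 intensity minus the gene's mean over the 6 arrays, with red above and blue below that mean and colours ending at ±1.5. Red and blue are mixed within each population for most genes, and Wnt4low replicate 1 holds the lowest Wnt4low value for 25 of the 49 genes.

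No array was the extreme of its population throughout. Wnt4low replicate 1 held the lowest value of its population for 25 of the 49 genes, and the median deviation of the cilium genes from their mean over the 6 arrays was -0.26 on that array, 0.03 and 0.02 on Wnt4low replicates 3 and 4, and -0.07, 0.04 and 0.18 on Wnt4hi replicates 2, 3 and 4. The group medians per array therefore overlapped between the populations. Without Wnt4low replicate 1, 4 genes passed the unadjusted threshold, 2 higher (4.08%), where 3.54% of all features did so, and 2 lower, where 5.4% did so, and the median log2 fold change was 0.17.

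What some of these genes share apart from the list is the X-box, the site that RFX transcription factors bind in front of cilium genes. Promoters were taken from RefSeq (GRCm38.p6, 250 bases before to 50 bases after the start), where 43 of the 49 genes had an entry, and were searched on both strands for GTTNCC followed, after 0 to 3 bases, by GGNAAC, a motif that reads the same on both strands. It was found at 5 of 43 cilium genes (11.6%), against 253 of 27025 genes in all (0.936%). The matches are printed because the X-box is a known sequence feature of cilium gene promoters, with the motif in capitals, on the strand of the gene. The shorter GTTGCC, which overlaps the X-box, was found at 20 of 43 cilium genes (46.5%) against 14.1% of all genes. A match is not evidence of binding in these cells.
Ift57, chr16:49699220-49699260, plus strand, motif from 60 bases before the start: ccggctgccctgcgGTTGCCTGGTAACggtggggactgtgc
Bbs7, chr3:36613483-36613524, minus strand, motif from 121 bases before the start: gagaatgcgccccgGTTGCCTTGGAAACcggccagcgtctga
Mks1, chr11:87853177-87853214, plus strand, motif from 24 bases before the start: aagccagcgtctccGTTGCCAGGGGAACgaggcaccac
Ahi1, chr10:20952568-20952581, plus strand, motif from base 22 of the transcript: GTTACCTAGGCAAC
Tctn1, chr5:122264411-122264424, minus strand, motif from base 37 of the transcript: GTTGCCCGGGCAAC

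All 5 genes with this motif had a log2 fold change above 0, with a median of 0.53 and a range from 0.06 for *Tctn1* to 1.23 for *Ahi1*, and 1 of them (*Ift57*) passed the unadjusted threshold. The median is the value of *Mks1*, for which a second probe, well above background on all 6 arrays, gave -0.49. Among the 38 cilium genes with a promoter entry and no match, 25 lay above 0, the median was 0.19 and 4 passed, and among all features 63.6% lay above 0 and 10.6% passed in either direction. With 5 genes this is a description of them. Of the 20 cilium genes with the shorter motif, 15 lay above 0 and 3 passed. Their median was 0.34 and their values ran from -0.70 (*Bbs1*) to 1.23. Of the 23 without it, 15 lay above 0, the median was 0.17 and 2 passed. *Tmem67*, *Foxj1*, *Ift122*, *Dync2li1*, *Ift81* and *Ift80* had no promoter entry.

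The IFT-B train, which carries tubulin and other cargo toward the tip, had 7 of 11 genes above 0 and a median log2 fold change of 0.36. *Ift57* and *Ift81* passed the unadjusted threshold as higher (18.2% of 11, against 5.06% of all features) and the other 9 genes did not. *Ift57*, a peripheral subunit of the train, had log2 intensities of 10.62, 10.71 and 10.76 on Wnt4hi replicates 2, 3 and 4 and of 9.64, 10.13 and 9.68 on Wnt4low replicates 1, 3 and 4. The Wnt4hi arrays lay within a narrow range above every Wnt4low array, and the log2 fold change was 0.88 (SE 0.173, limma unadjusted p = 0.00209, adjusted p = 0.123), a 1.84-fold difference. It passed the unadjusted threshold under all 20 alternative settings, with values from 0.79 to 1.04, and each array could be left out without losing it. Its promoter is the first of those printed with an X-box. *Ift81*, whose product binds tubulin, had log2 intensities of 12.59, 12.05 and 12.51 on the Wnt4hi arrays and of 11.23, 12.13 and 11.55 on the Wnt4low arrays. Wnt4low replicate 3 lay above Wnt4hi replicate 3, and the log2 fold change was 0.75 (SE 0.276, unadjusted p = 0.0345). A dimmer probe of *Ift81* gave 1.32. The call for *Ift81* was lost when Wnt4hi replicate 2 or 4, or Wnt4low replicate 1 or 4, was left out, with values from 0.54 to 0.70 and unadjusted p from 0.0896 to 0.0983.

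Among the rest of the IFT-B train, named after their values were seen, *Ift46* had log2 intensities of 10.18, 10.50 and 10.13 on the Wnt4hi arrays and of 9.81, 9.90 and 10.07 on the Wnt4low arrays. These did not overlap, but the log2 fold change of 0.34 had an unadjusted p of 0.0738, and its other probes, well above background on all 6 arrays, gave 0.29 and -0.17. *Ift88*, the train component whose loss abolishes cilia in mice, had 10.82, 11.10 and 10.88 against 10.36, 10.26 and 10.92, with Wnt4low replicate 4 inside the Wnt4hi range, and a log2 fold change of 0.42 with a 95% interval from -0.10 to 0.94. Its second probe gave 0.07. *Ift80* (0.56), *Ift27* (0.44) and *Ift20* (0.36) also had values above 0, and *Ift172* (-0.03), *Ift22* (-0.10), *Ift74* (-0.22) and *Ift52* (-0.41) had values below 0, each with an interval that included 0. *Ift74* encodes the partner of *Ift81* in the tubulin-binding module, and its second probe, well above background on all 6 arrays, gave 0.21.

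The IFT-A train is needed for transport back to the base and for entry of membrane receptors. This group, counted with the adaptor *Tulp3*, had 2 of 4 genes above 0 and a median of -0.08. *Ift43*, a small subunit of that train, had log2 intensities of 10.56, 10.13 and 10.49 on the Wnt4hi arrays and of 10.86, 10.88 and 10.95 on the Wnt4low arrays. The Wnt4low arrays agreed closely and lay above every Wnt4hi array, and the log2 fold change was -0.51 (SE 0.158, unadjusted p = 0.0177, adjusted p = 0.316). It was lower in Wnt4hi under all 20 alternatives and past the unadjusted threshold in 18. Without Wnt4hi replicate 3 the value was -0.38 with an unadjusted p of 0.0523, and with the replicate number as a block *Ift43* did not pass either. *Tulp3*, the adaptor that links receptors to IFT-A, had a log2 fold change of -0.34, *Ift122* of 0.18 and *Ift140* of 0.22. For *Ift140* the high array was Wnt4hi replicate 4, at 11.39 against 9.85 and 9.55 on the other Wnt4hi arrays.

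**Figure D3:**
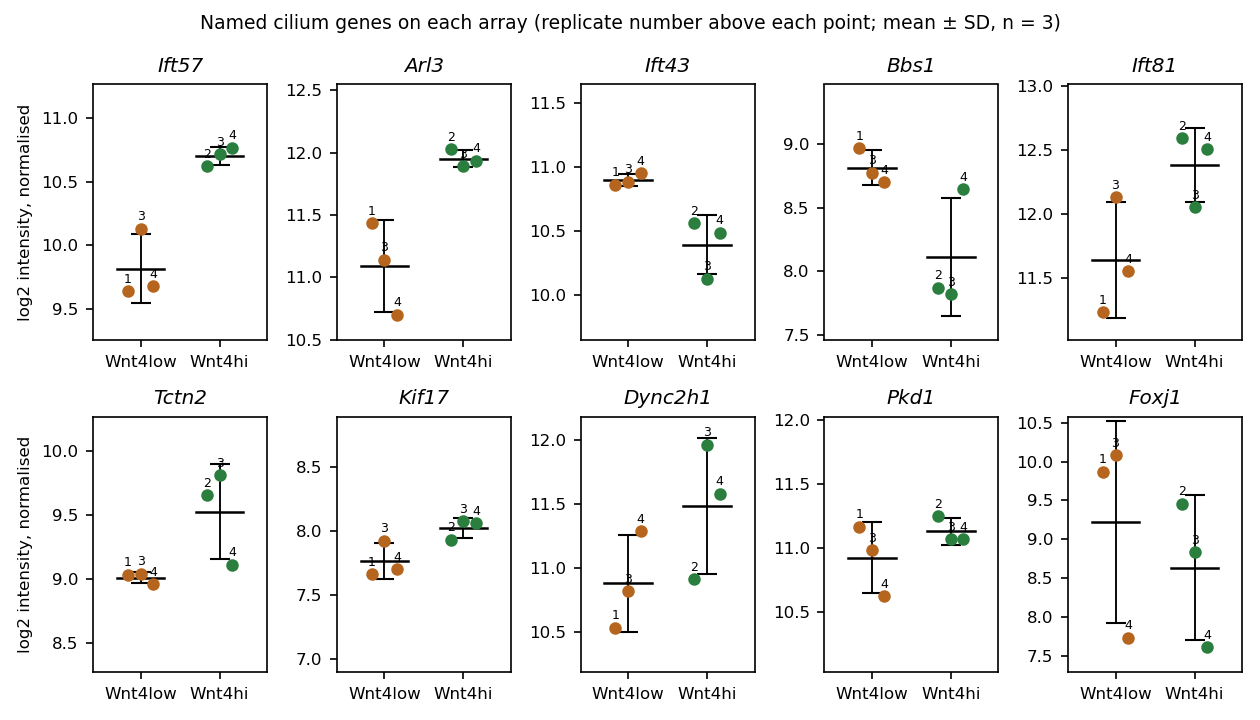
Normalised log2 intensity of 10 cilium genes on each array, the 6 that passed the unadjusted threshold and the gene of lowest p in each other role, with the replicate number above each point, a horizontal line for the mean and bars for the SD (n = 3); the vertical scale differs between panels. *Ift57*, *Arl3*, *Ift43*, *Bbs1*, *Tctn2* and *Kif17* show no overlap between Wnt4hi and Wnt4low, whereas *Ift81*, *Dync2h1*, *Pkd1* and *Foxj1* overlap.

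In the BBSome group, the coat that sorts membrane proteins in and out of the cilium, 7 of 10 genes were above 0 and the median was 0.26. *Bbs1*, a subunit of the BBSome core, had log2 intensities of 7.87, 7.82 and 8.64 on the Wnt4hi arrays and of 8.96, 8.77 and 8.70 on the Wnt4low arrays. The populations did not overlap, though Wnt4hi replicate 4 came close to the lowest Wnt4low array, and the log2 fold change was -0.70 (SE 0.251, unadjusted p = 0.0309, adjusted p = 0.395). The other probe of *Bbs1*, also above background on all arrays, gave 0.22, the authors' table gave 0.18, and the call was lost when any array other than Wnt4hi replicate 4 was left out (-0.55 to -0.76). *Bbs12*, which encodes a chaperonin-like factor of BBSome assembly, had 9.94, 9.07 and 9.26 against 8.88, 8.96 and 8.69, without overlap, and a log2 fold change of 0.58 (unadjusted p = 0.0568). *Bbs10*, a chaperonin-like gene as well, had a value of -0.29 and was well above background on 2 of 3 Wnt4hi arrays.

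Among the remaining BBSome genes, described after their values were seen, *Ttc8*, *Arl6* and *Bbs2* had wide spreads between replicates. *Ttc8* (BBS8) had 10.22, 8.96 and 8.69 on the Wnt4hi arrays and 7.55, 8.26 and 9.56 on the Wnt4low arrays, so that its log2 fold change of 0.83 had a 95% interval from -0.67 to 2.33. *Arl6*, the GTPase that recruits the BBSome to membranes, had 8.19, 9.17 and 9.98 against 8.18, 9.84 and 9.68, and *Bbs2* had 8.37, 8.77 and 9.75 against 7.84, 9.12 and 9.73. In both, one array of each population was more than 1 log2 unit below the highest of its population, and the log2 fold changes were -0.12 and 0.07. *Bbs9* (0.38), *Bbs7* (0.47), *Bbs5* (0.35) and *Bbs4* (0.17) were above 0 with intervals that included 0.

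The ARL GTPases lay on opposite sides of 0. *Arl3*, which releases lipid-anchored cargo inside the cilium, had log2 intensities of 12.03, 11.89 and 11.94 on the Wnt4hi arrays and of 11.43, 11.14 and 10.70 on the Wnt4low arrays. Every Wnt4hi array was above every Wnt4low array, and the log2 fold change was 0.86 (SE 0.208, unadjusted p = 0.00584, adjusted p = 0.196), a 1.81-fold difference. It passed the unadjusted threshold under all 20 alternatives (0.57 to 1.03), but a dimmer second probe gave 0.27. *Arl13b*, the membrane GTPase used as a marker of cilia and known to activate *Arl3*, had 8.60, 8.45 and 8.26 against 8.53, 9.07 and 9.12. Wnt4low replicate 1 fell inside the Wnt4hi range, and the log2 fold change was -0.47 with a 95% interval from -0.97 to 0.03 (unadjusted p = 0.0599). Its second probe gave -0.64.

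Motor genes did not pass the unadjusted threshold. *Kif17*, a homodimeric kinesin-2, had 7.93, 8.08 and 8.06 on the Wnt4hi arrays and 7.66, 7.93 and 7.71 on the Wnt4low arrays. The populations did not overlap in the unrounded values, and the log2 fold change was 0.26 (SE 0.137, unadjusted p = 0.104). The heterotrimeric motor genes *Kif3a* (-0.07), *Kif3b* (0.35) and *Kif3c* (-0.07) had intervals that included 0. *Dync2h1*, the heavy chain of dynein-2, had 10.91, 11.96 and 11.58 against 10.53, 10.82 and 11.29, and Wnt4hi replicate 2 lay inside the Wnt4low range. Its log2 fold change was 0.61 (SE 0.325, unadjusted p = 0.110), and 0.89 without Wnt4hi replicate 2 (unadjusted p = 0.0212). *Dync2li1*, the light intermediate chain of the same motor, had 6.90, 9.62 and 9.67 on the Wnt4hi arrays and 7.59, 9.24 and 7.97 on the Wnt4low arrays, where 6.90 was not well above background. Its log2 fold change was 0.46 with all arrays and 1.38 without Wnt4hi replicate 2 (unadjusted p = 0.0369). In the authors' table this array has a value of 9.56 for *Dync2li1*, close to 9.70 and 9.77 on the other Wnt4hi arrays.

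The transition zone and basal body genes had 10 of 11 values above 0 and a median of 0.41, against 63.6% above 0 among all features, and 1 passed the unadjusted threshold as higher (9.09% of 11, against 5.06% of all features). *Tctn2*, a tectonic of the gate, had log2 intensities of 9.66, 9.81 and 9.11 on the Wnt4hi arrays and of 9.03, 9.04 and 8.96 on the Wnt4low arrays. The Wnt4low arrays were nearly equal and lay below every Wnt4hi array, and the log2 fold change was 0.52 (SE 0.207, unadjusted p = 0.0459). The second probe gave 0.90. The call was kept in 5 of the 20 alternatives, and of the arrays, only leaving out Wnt4hi replicate 4 kept it (0.72, against 0.37 to 0.53 for the others). Its paralog *Tctn1* was measured with an SE of 0.163, at 10.18, 10.65 and 10.38 against 10.33, 10.45 and 10.26, with a log2 fold change of 0.06 and a 95% interval from -0.34 to 0.45.

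*Ahi1*, whose product joubertin sits at the transition zone and basal body, was singled out after its values were seen, as the one cilium gene with a log2 fold change over 1. It had 12.64, 11.11 and 11.98 on the Wnt4hi arrays and 9.84, 11.18 and 11.03 on the Wnt4low arrays. Wnt4hi replicate 3 lay below Wnt4low replicate 3, and the log2 fold change of 1.23 had an SE of 0.508 and an unadjusted p of 0.0514. Its other probes gave 0.96 and 0.25, and without Wnt4hi replicate 2 the value was 0.86 (unadjusted p = 0.139). *Rpgr* (0.54), *Mks1* (0.53) and *Rpgrip1l* (0.50) had similar log2 fold changes with standard errors of 0.498, 0.444 and 0.488. For *Mks1* and *Rpgrip1l* the highest array was Wnt4hi replicate 4, at 10.56 and 10.43. *Nphp4* (0.41), *Cc2d2a* (0.17), *Tmem67* (0.08) and *Alms1* (0.06) were above 0, and *Cep290*, a scaffold of the gate, was the gene below 0 (-0.10), at 8.96 and 9.60 on Wnt4hi replicates 2 and 4 and lower on Wnt4hi replicate 3.

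The transcription factors and the polycystins did not pass the unadjusted threshold. *Foxj1*, the master regulator of motile cilia, had 9.46, 8.83 and 7.61 on the Wnt4hi arrays and 9.87, 10.08 and 7.73 on the Wnt4low arrays, a range of 1.85 within Wnt4hi and of 2.35 within Wnt4low beside a log2 fold change of -0.59 (SE 0.755). *Rfx1* had 12.47, 12.09 and 11.61 against 11.75, 11.88 and 12.01, with a log2 fold change of 0.18, and *Rfx2* was well above background on 2 Wnt4hi arrays and 1 Wnt4low array. *Pkd1*, which encodes polycystin-1 of the ciliary membrane, had 11.25, 11.07 and 11.07 against 11.17, 10.98 and 10.62. The arrays overlapped, and the log2 fold change was 0.21 with a 95% interval from -0.23 to 0.64. The second probe of *Pkd1* gave -0.41. *Pkd2*, the channel subunit, had 12.28, 12.16 and 12.04 against 11.46, 12.32 and 12.46, and a log2 fold change of 0.08 with an interval from -0.61 to 0.77. Its second probe, well above background on all 6 arrays, gave -0.60.

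Probes of the same gene were a further source of spread. The 49 genes had 87 probes, and 30 genes had more than 1. Among the 18 genes with more than 1 probe well above background on all 6 arrays, the probes had the same sign for 10 and both signs for 8. The median range of the log2 fold change between such probes was 0.49, where the median absolute log2 fold change of the 49 genes was 0.35.

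**Figure D4:**
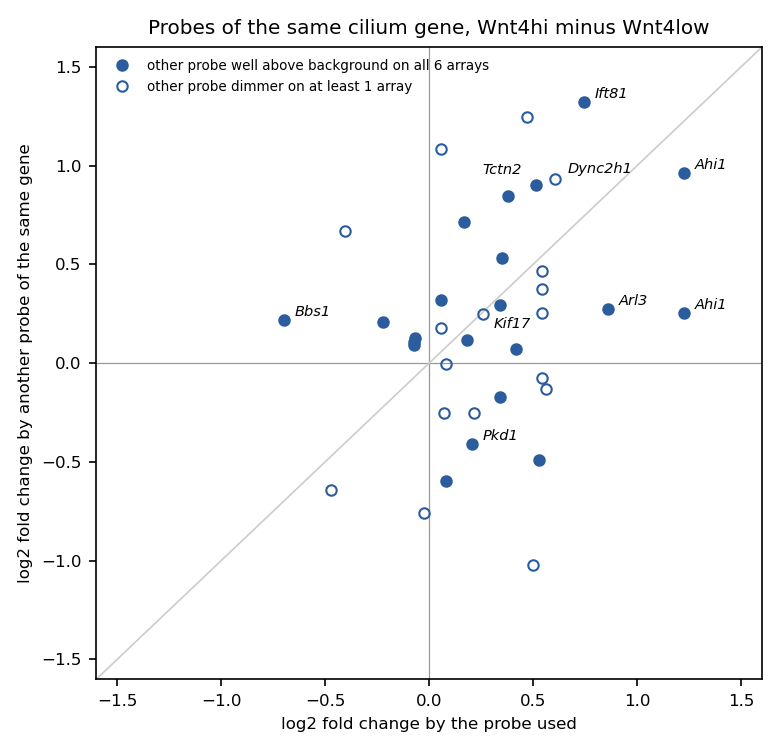
Log2 fold change, Wnt4hi minus Wnt4low, by the probe that stands for a cilium gene (horizontal) and by each other probe of that gene (vertical), with filled points for other probes well above background on all 6 arrays and open points for dimmer ones; the diagonal is equality. Points fall in all quadrants, so that the sign of a gene can depend on the probe, as for *Bbs1* (-0.70 and 0.22) and *Pkd1* (0.21 and -0.41), while *Ift81*, *Tctn2* and *Dync2h1* lie above 0 by both probes.

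Without the array labelled Wnt4hi replicate 2, 38 of the 49 genes were above 0 with a median of 0.31. Then 6 genes passed the unadjusted threshold as higher (*Ift57*, *Bbs9*, *Arl3*, *Dync2h1*, *Ift80* and *Dync2li1*), where 5.11% of all features did so, and *Ift43* passed as lower, where 5.24% did so. The authors' table held 42 of the 49 genes, and 12 passed, 11 higher (*Ift57*, *Arl3*, *Kif17*, *Dync2li1*, *Bbs7*, *Alms1*, *Bbs4*, *Bbs12*, *Ift81*, *Dync2h1* and *Ift88*), where 5.34% of the features of that table did so, and *Ift43* lower, where 6.92% did so. With the array left out of that table as well, 10 passed as higher, where 5.07% of its features did so, and 1 as lower, where 6.06% did so. *Arl3*, *Ift43*, *Ift57* and *Ift81* passed both in the reported values and in the authors' table, and 0 of the cilium genes passed after adjustment over all features in either (lowest adjusted p 0.0708 in the authors' table, *Ift57*).

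Other genes of cilium biology, 110 measured of 115 listed, were set beside the list. Of these, 65 were above 0 and 45 below, the median log2 fold change was 0.07, 11 passed the unadjusted threshold as higher (10%, against 5.06% of all features) and 5 as lower (4.55%, against 5.53%), and 0 passed after adjustment. Without Wnt4hi replicate 2, 7 passed as higher (6.36%, against 5.11% of all features) and 4 as lower (3.64%, against 5.24%). Transition zone genes outside the list of 49 had 9 of 12 above 0, with *B9d2* at 12.26, 12.03 and 11.93 on the Wnt4hi arrays and 11.81, 11.27 and 11.09 on the Wnt4low arrays. The populations did not overlap, and the log2 fold change of *B9d2* was 0.69 (unadjusted p = 0.0212). *Kifap3*, which encodes the subunit that links the kinesin-2 motor to its cargo, had 9.91, 10.40 and 10.11 on the Wnt4hi arrays and 10.97, 10.78 and 11.35 on the Wnt4low arrays. Every Wnt4hi array was below every Wnt4low array, at a log2 fold change of -0.89 (unadjusted p = 0.00513, adjusted p = 0.185), whereas the motor genes *Kif3a*, *Kif3b* and *Kif3c* did not pass. *Wdpcp*, a planar cell polarity effector of ciliogenesis, had a log2 fold change of 1.36 (unadjusted p = 0.0177) with 1 Wnt4low array above the lowest Wnt4hi array, and *Ofd1*, of the centriolar satellites and distal centriole, of 0.80 (unadjusted p = 0.0365).

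*Rfx3*, the RFX factor needed for cilia and for endocrine differentiation in the mouse pancreas, had log2 intensities of 11.98, 11.85 and 12.53 on the Wnt4hi arrays and of 10.75, 11.45 and 11.70 on the Wnt4low arrays. The populations did not overlap, and the log2 fold change was 0.82 (unadjusted p = 0.0348, adjusted p = 0.411). *Rfx3* passed the unadjusted threshold in 14 of 20 alternatives. *Ffar4*, a fatty acid receptor that can localise to cilia, had 9.58, 9.81 and 9.86 against 7.97, 8.90 and 8.27, without overlap, and a log2 fold change of 1.37 (unadjusted p = 0.00169, adjusted p = 0.113).

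Genes that suppress or take down the cilium had 5 of 11 values above 0, with 2 past the unadjusted threshold as higher, where 5.06% of all features passed, and 1 as lower, where 5.53% passed. Without Wnt4hi replicate 2 it was 1 in each direction. *Hdac6*, the tubulin deacetylase used in cilium disassembly, was higher in Wnt4hi, at 14.03, 13.80 and 13.49 against 12.64, 12.93 and 12.77. The populations did not overlap, and the log2 fold change was 0.99 (unadjusted p = 0.00147, adjusted p = 0.105). *Cep97*, whose product caps the centriole together with CP110, was well above background on 1 of 3 Wnt4low arrays and had a fitted log2 fold change of 1.00 (unadjusted p = 0.0365). The value was 0.28 with the mean of its probes (unadjusted p = 0.312) and past the unadjusted threshold in 12 of 20 alternatives. *Nedd9*, the scaffold that activates Aurora A when the cilium is resorbed, was not well above background on any Wnt4hi array. It was at least 1.78-fold lower in Wnt4hi than in Wnt4low, where each dim array entered the bound at the lowest level well above background or its own, if higher (limma adjusted p = 0.0561). The adjusted p ranged from 0.0263 to 0.318 over the 20 alternatives and was under 0.05 in 9 of them.

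Hedgehog components that signal through the cilium had 10 of 12 values below 0, a median log2 fold change of -0.41 and 3 genes past the unadjusted threshold as lower (25% of 12, against 5.53% of all features). Without Wnt4hi replicate 2 there were 2 such genes, where 5.24% of all features passed as lower. *Gli1*, a transcription factor and target of the pathway, had 8.49, 7.91 and 8.05 on the Wnt4hi arrays and 9.37, 8.77 and 8.66 on the Wnt4low arrays. These did not overlap (log2 fold change -0.78, unadjusted p = 0.0211). The other genes past the threshold, named as part of a count of 3, were *Smo*, the signal transducer (-0.62), and *Kif7*, the kinesin of the ciliary tip (-0.53). The endothelial and mesenchymal markers, at medians of -3.58 and -1.18, were lower in Wnt4hi in the same arrays, and their part in these values was not tested. Genes of the motile axoneme had 15 of 18 values above 0, a median of 0.19 and 3 genes past the unadjusted threshold as higher (16.7% of 18, against 5.06% of all features). They were *Dnah9* (0.58), *Cfap126* (0.59) and *Spag6l*. As *Spag6l* was not well above background on any of the 6 arrays, no size of change is given for it. Without Wnt4hi replicate 2, 1 gene of the motile axoneme passed as higher (5.56% of 18, against 5.11% of all features). When 1 array at a time was left out, *Kifap3*, *Hdac6*, *Nedd9* and *Ffar4* stayed past the unadjusted threshold in 6 of 6 cases. *Wdpcp* and *Ofd1* stayed past it when Wnt4hi replicate 3 or Wnt4low replicate 3 was the one left out, *Rfx3* with Wnt4hi replicate 3 or Wnt4low replicate 4 left out, and *Cep97* with replicate 4 of either population left out. In the authors' table *Kifap3* (-0.60), *B9d2* (0.45), *Ofd1* (0.62) and *Cep97* (0.09) did not pass. *B9d2* lost the call without Wnt4hi replicate 2 or Wnt4low replicate 3 or 4, and *Gli1* without Wnt4hi replicate 3 or 4 or Wnt4low replicate 1.

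**Figure D5:**
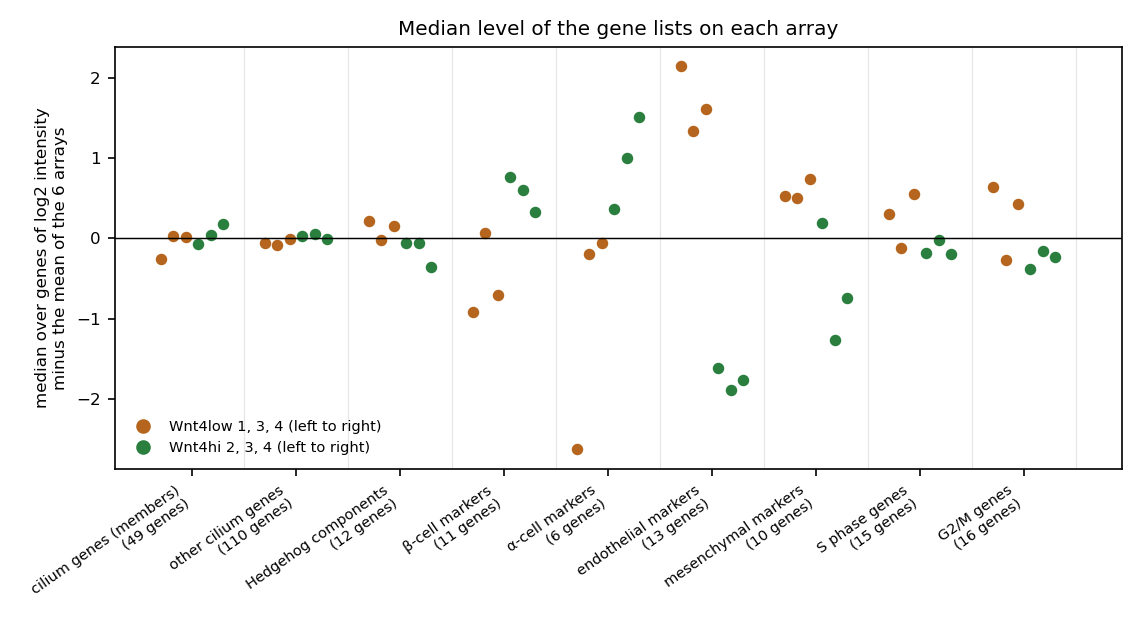
Median over the genes of a list of the log2 intensity minus the gene's mean over the 6 arrays, one point per array, for the 49 cilium genes, the 110 other cilium genes, the 12 Hedgehog components among them, and markers of cell types and cell cycle phases. The cilium medians lie between -0.26 and 0.18 and overlap between Wnt4low (brown) and Wnt4hi (green), whereas the endothelial medians are 1.34 to 2.14 in Wnt4low and -1.88 to -1.61 in Wnt4hi.

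The array medians of the 49 cilium genes ranged from -0.26 to 0.03 in Wnt4low and from -0.07 to 0.18 in Wnt4hi, and those of the 110 other cilium genes from -0.08 to 0.05 over all 6 arrays. By contrast, the endothelial markers lay between 1.34 and 2.14 in Wnt4low and between -1.88 and -1.61 in Wnt4hi, and the β-cell markers between -0.92 and 0.06 and between 0.32 and 0.77. Wnt4low replicate 1, which had the lowest cilium median, also had the lowest medians of the β-cell markers (-0.92) and of the α-cell markers (-2.62) and the highest of the endothelial markers (2.14). The median of the delta and PP cell markers on that array (0.50) was the highest of the 6 arrays. Whether the lower β-cell and α-cell signal of that array bears on its cilium values was not tested.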

How the data were processed

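Total RNA of FACS-sorted Wnt4hi and Wnt4low islet cells of P1 pups was amplified as cDNA and read with Cy5 on 1-colour SurePrint G3 Mouse v2 arrays, with 3 arrays per population, all on 1 slide and in 1 scan, so that no batch could be tested. Groups and replicate numbers come from the sample labels. For each array the authors deposited the scanner's intensity values, spot and local background in the red channel, before any normalisation. Its software is Agilent Feature Extraction, given as version 9.1 in the submitters' processing notes. The scanner output itself gives another version, and which is right is not known from the sources used here. They also deposited a table of log2 values that they had corrected and normalised with limma, which was used as an alternative.

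Following the study's methods, the median intensity of each spot was corrected with normexp (offset 50) in limma 3.58.1 (R 4.3.3) and normalised by quantiles. Outlier spots (50 to 141 per array) were left out, 0 spots were saturated, and spots of a probe were averaged. Of 27845 RefSeq probe names, 25126 were matched to RefSeq genes of GRCm38.p6, used for names and promoters only. A gene with several probes was read from the one of highest mean intensity, which gave 45616 features. Wnt4hi and Wnt4low were compared 2-sided with lmFit and eBayes over all features, with Benjamini-Hochberg adjustment beside the unadjusted threshold of 0.05. The p-values take the arrays as independent samples. The labels do not say that samples share no animals, so whether this holds is not known. Median intensity over background was 10.8 to 15.6 per array, and 70.5% to 79.5% of the spots that are not controls were well above background. The precision of each value is that of 3 arrays per population.

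The cilium genes, the other lists and the markers were chosen with earlier results of these data known, and support nothing by their choice. Genes described in full are those past the unadjusted threshold, the one of lowest p in each role, and the 10 other cilium genes of largest change among those past it. Genes named beyond that rule were chosen after their values were seen. Other settings changed the background correction, normalisation, filter, probe choice, variance model, values and replicate block, or omitted 1 array at a time. The fit was tested on simulated data.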

Additional observations from a re-analysis of the deposited data

How the results depend on the processing

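The number of cilium genes past the unadjusted threshold, 6 in the reported values (10.6% of all features passed in either direction), was 3 by a t-test (2 higher and 1 lower), which the methods name for the study in general and not for the arrays, where 8.91% of all features passed, and 12 in the authors' table (12.3% of its features), or 11 with Wnt4hi replicate 2 left out of that table (11.1%), an alternative chosen after seeing the data. It was 4 to 7 when each array was left out in turn, with the lowest number without Wnt4low replicate 1, and 6 or 7 in the settings that remain. After adjustment it was 0 in all 20 settings. The median log2 fold change of the 49 genes stayed above 0 in every setting, from 0.14 without Wnt4hi replicate 4 to 0.32 with the probe of smallest p, and from 0.14 to 0.31 when each array was left out. *Bbs1* changed sign in the authors' table (0.18, and 0.13 with Wnt4hi replicate 2 left out), and *Pkd1* with the mean of the probes of a gene (-0.10). The cause was not tested. Of the 49 genes, 22 kept their sign in all 20 settings, 18 of them higher in Wnt4hi and 4 lower. The unadjusted threshold was passed in at least 1 setting by 24 genes and in at least 15 by 3, *Ift57* and *Arl3* in 20 and *Ift43* in 18. The share of all features that did so over the settings was not counted, so these numbers cannot be read as an excess. Over the 21 genes described in full, *Wnt4* included, 342 of 417 values kept their sign and their side of the unadjusted threshold, 68 lost the call, 5 gained it and 2 changed sign.

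Replicates 3 and 4 are numbered in both populations, with pools of 4 pups for both replicates 3 and of 3 pups for both replicates 4. The labels do not say whether equal numbers mark the same pool, so the numbers were not taken as pairs in the reported values. Deviations from the group means correlated at -0.03 for replicate 3 and 0.16 for replicate 4 over all features. Other combinations of replicates ran from -0.23 to 0.18. With 3 arrays per population such correlations cannot settle whether pools were shared. With the replicate number as a block, 6 cilium genes passed (5 higher and 1 lower, where 10.6% of all features passed) with a median of 0.27, and *Ift81*, *Ift43*, *Bbs1* and *Tctn2* did not pass. With the number as a random block 7 passed (median 0.23), where 11.3% of all features passed. The 95% intervals of the cilium genes had a median of 0.76 on either side of the value and standard errors from 0.137 to 0.848, so each gene has its own limit of detection.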
